A study of Homo sapiens with 8 samples.

Results

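The epithelial-mesenchymal switch was followed in RNA-seq of BT549 and MDAMB468 cells through 10 genes taken by name from the deposited count table, which has 55679 gene identifiers. They are the transcription factors SNAI1, SNAI2, TWIST1, ZEB1, ZEB2 and GRHL2 and the markers CDH1, CDH2, VIM and EPCAM. BT549 and MDAMB468 are human breast cancer cell lines labelled as triple-negative (TNBC), the class of breast cancer defined by missing estrogen, progesterone and HER2 receptors. Each line was sequenced as parental cells and as CE cells, a culture grown in rising concentrations of the laxative Acetalax (oxyphenisatin acetate) up to 40 μM and kept free of it for 2 weeks, and each of these was sequenced as a control and after 1 μM Acetalax for 6 hours. That gives 8 libraries with 1 library per condition, and 1 CE culture per line. No condition has a replicate: matched pairs of conditions stood in for replicates in the tests, and p-values measure the spread between those pairs.

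Epithelial cells hold to each other through E-cadherin, encoded by CDH1, whose cytoplasmic tail is linked to actin by catenins. In the epithelial-mesenchymal transition, factors of the SNAIL (SNAI1, SNAI2), TWIST (TWIST1) and ZEB (ZEB1, ZEB2) families repress CDH1 and other epithelial genes, and cells come to express N-cadherin (CDH2) and the intermediate filament vimentin (VIM). GRHL2 works on the other side: it maintains the epithelial programme and is held in mutual repression with ZEB1. EPCAM encodes a surface adhesion protein of epithelia. The ZEB messengers are classic targets of the miR-200 microRNA family, which base-pairs with them through the seed, bases 2 to 8 of the microRNA.

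The seeds fall into 2 groups that differ by a single base, shown here in capitals in the mature sequences of RefSeq (GRCh38.p14), because the ZEB1 and ZEB2 messengers are read through them.
hsa-miR-200b-3p: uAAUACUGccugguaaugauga
hsa-miR-200c-3p: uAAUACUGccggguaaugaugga
hsa-miR-429: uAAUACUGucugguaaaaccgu
hsa-miR-200a-3p: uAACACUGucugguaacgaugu
hsa-miR-141-3p: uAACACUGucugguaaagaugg

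Their complements, CAGTATT for the first group and CAGTGTT for the second, were searched on the sense strand of the 3′ untranslated regions in GRCh37, the hg19 assembly of the counts. ZEB1 had 6 CAGTATT and 3 CAGTGTT matches in 2540 bases, and ZEB2 had 5 and 4 in 5370 bases. Of the untranslated regions at least as long as that of ZEB1, its own included, 27.4% of 4328 held CAGTATT in their first 2540 bases. Only ZEB1 itself (0.0231%) held it as many times. For ZEB2, 47.3% of 1075, its own included, held it, and only ZEB2 itself (0.0930%) held it as many times. The second match was less rare in such numbers: 30.4% of the ZEB1 set held CAGTGTT and 0.924% held it as many times, and 51.3% and 1.12% of the ZEB2 set did. SNAI1, TWIST1, CDH1, CDH2, VIM and EPCAM had 0 matches to either, and SNAI2 and GRHL2 were not searched. The sites below, 5′ to 3′ with the match in capitals, are from the last exon of each gene, at chr10:31816546-31816567 and chr10:31816959-31816980 on the plus strand for ZEB1, and at chr2:145146620-145146641 and chr2:145146804-145146825 on the minus strand for ZEB2.
ZEB1 first seed: attgttttatcttatCAGTATT
ZEB1 second seed: caaaatcatcagaatCAGTGTT
ZEB2 first seed: cgcactaccatacatCAGTATT
ZEB2 second seed: tgcaaaaattttgtaCAGTGTT

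These letters are matches and not measured binding. Mature microRNAs were not measured, since polyadenylated RNA was sequenced. Reads on the microRNA loci themselves were few and were seen almost entirely in MDAMB468. In the order parental control, parental Acetalax, CE control and CE Acetalax, which is kept below, MIR429 had 29, 75, 22 and 53 counts in MDAMB468, MIR200A 14, 37, 15 and 28, and MIR200B 21, 32, 14 and 16. Across the 4 BT549 libraries MIR429 had 1 count in all, and MIR200A and MIR200B had 0. MIR200C and MIR141 had at most 3 counts in any library. MIR205HG, the host transcript of miR-205, another microRNA that targets the ZEB messengers, was looked up after its values were seen. It was at 86.4, 81.1, 183 and 150 CPM (a gene's counts scaled to the library's total on genes) in MDAMB468, and had at most 1 count in a BT549 library.

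The libraries held between 42261122 and 54241728 counts on genes (median 48064282), so that 1 CPM stands for 42.3 to 54.2 counts. Intervals below are exact 95% intervals for counting error only. ESR1 was at most 5.15 CPM and PGR at most 0.63 CPM in any library, while ERBB2 was between 41.2 and 95.2 CPM. Of 5 marker genes of leukocytes and endothelium, 4 were in the table, and all were under 1 CPM in every library, with a summed level of 0.27 to 0.90 CPM. No library was a copy of another, since the closest pair still had a chi-square of 39.5 for each degree of freedom.

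The cell lines stood at opposite ends of the switch. All 10 genes separated them, 7 being higher in BT549 and 3 higher in MDAMB468, by edgeR's quasi-likelihood test with the 4 conditions as blocks (adjusted p threshold 0.05). Of 19693 genes tested, 56.8% passed this test (27.3% higher and 29.5% lower in BT549), so passing it does not by itself set the 10 genes apart. The share of genes with differences as large was not computed. Their 4 libraries of each line did not overlap for any of the 10, which also held for 55.7% of the 11135 genes that averaged 5 CPM or more.

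**Figure D1:**
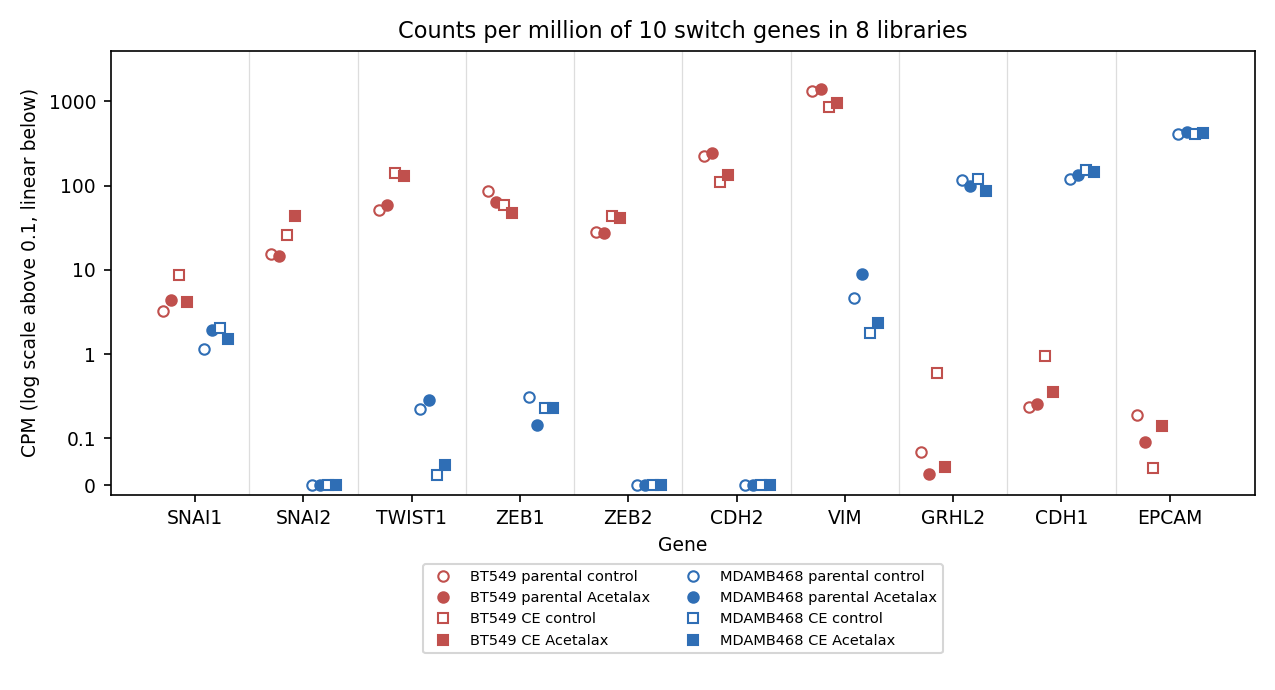
CPM of each of the 10 genes (x axis) in the 8 libraries (y axis, log scale above 0.1 CPM and linear below); circles are parental and squares CE cells, open symbols control and filled symbols Acetalax, red BT549 and blue MDAMB468. The BT549 symbols lie above the MDAMB468 symbols for the 7 genes on the left and below them for GRHL2, CDH1 and EPCAM, and the gap is narrowest for SNAI1.

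Among the markers, EPCAM (hg19 chr2:47572297-47614740, plus strand) was at 409, 438, 409 and 423 CPM in MDAMB468 and at 0.19, 0.09, 0.04 and 0.14 CPM in BT549, where it had from 2 to 8 counts. This was the widest gap among the 7 genes detected in both lines, 3813-fold on summed counts (log2 difference of BT549 to MDAMB468 −11.71, SE 0.39, adjusted p = 9.91e-06). CDH1 (chr16:68771128-68869451, plus strand) was at 119, 132, 155 and 147 CPM in MDAMB468 and at 0.24, 0.25, 0.96 and 0.36 CPM in BT549. It was 289-fold lower in BT549 (−8.23, SE 0.39, adjusted p = 2.58e-05), with 10, 11, 52 and 18 counts there.

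CDH2 (chr18:25530930-25757410, minus strand) was at 223, 242, 110 and 135 CPM in BT549 and had 0 counts in all 4 MDAMB468 libraries. Against a floor of 3 counts over that group, it was at least 10813-fold higher in BT549. VIM (chr10:17270258-17279592, plus strand) was at 1327, 1414, 864 and 962 CPM in BT549 and at 4.63, 8.94, 1.77 and 2.36 CPM in MDAMB468, 249-fold higher on summed counts (8.42, SE 0.39, adjusted p = 2.51e-05). Unlike CDH2, vimentin RNA was thus detected in both lines, with at least 78 counts in every MDAMB468 library.

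Among the repressors of CDH1, SNAI2 (chr8:49830249-49834299, minus strand) and ZEB2 (chr2:145141648-145282147, minus strand) also had 0 counts in all MDAMB468 libraries. SNAI2 was at 15.4, 14.8, 25.7 and 43.2 CPM in BT549, at least 1610-fold higher against the same floor. ZEB2 was at 28.3, 27.4, 44.0 and 41.9 CPM, at least 2278-fold higher. Of 9031 genes averaging 10 CPM or more in BT549, 53 (0.587%) had 0 counts in every MDAMB468 library, so these 3 genes belong to a small class.

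ZEB1 (chr10:31607424-31818742, plus strand) was at 86.1, 64.4, 58.5 and 47.9 CPM in BT549 and had 15, 7, 10 and 11 counts in MDAMB468, a 277-fold difference (8.28, SE 0.24, adjusted p = 9.91e-06). ZEB1-AS1, antisense to ZEB1, had 235, 192, 226 and 114 counts in BT549 and 114, 54, 120 and 61 in MDAMB468. Since the strand used in counting is not given in the sources used here, reads of this pair may be mixed. TWIST1 (chr7:19060614-19157295, minus strand) was at 51.9, 59.4, 140 and 131 CPM in BT549 and had 11, 14, 1 and 2 counts in MDAMB468, a 673-fold difference (9.35, SE 0.83, adjusted p = 0.000245). SNAI1 (chr20:48599536-48605423, plus strand) was the exception in size. It was at 3.24, 4.41, 8.81 and 4.13 CPM in BT549 and at 1.15, 1.96, 2.06 and 1.49 CPM in MDAMB468, only 3.22-fold higher in BT549 (1.72, SE 0.27, adjusted p = 0.00219).

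GRHL2 (chr8:102504660-102681954, plus strand) showed the reverse order. It was at 117, 98.2, 119 and 86.9 CPM in MDAMB468 and had 3, 1, 32 and 2 counts in BT549, 527-fold lower (−9.35, SE 0.71, adjusted p = 0.000137). Of the 38 GRHL2 counts in BT549, 32 were in the CE control library.

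Per length, as FPKM on merged exons, the levels within BT549 ran from VIM at 221 ± 52.1 (SD over the 4 conditions) through TWIST1 at 47.9 ± 23.3, CDH2 at 20.7 ± 7.56, SNAI2 at 7.55 ± 4.05, ZEB1 at 7.42 ± 1.87 and SNAI1 at 3.02 ± 1.46 to ZEB2 at 1.35 ± 0.34. The ranges of TWIST1 and CDH2, of CDH2 and SNAI2, of SNAI2 and ZEB1, and of SNAI2 and SNAI1 overlapped. VIM lay above TWIST1 in every library and ZEB2 below SNAI1. In MDAMB468, EPCAM was at 173 ± 5.68 FPKM, CDH1 at 22.7 ± 2.63 and GRHL2 at 17.4 ± 2.54, the ranges of CDH1 and GRHL2 overlapping. SNAI1 at 0.98 ± 0.25 and VIM at 0.85 ± 0.63 overlapped there. ZEB2 stands lower per length than in CPM because its exons, merged over all annotated transcripts, add up to 26151 bases. A single messenger can be shorter than that, so the place of ZEB2 in this order depends on the length used.

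The same division ran through longer lists of genes with known roles on either side of the switch. These lists were chosen with earlier results of these data known, so they describe the division and do not test it. Of 36 epithelial genes (junction, keratin and epithelial regulator genes), 34 were lower in BT549 and 0 higher, with a median log2 difference of −7.27, against −0.02 over all genes tested. RAB25, a small GTPase of epithelial recycling, averaged 142 CPM in MDAMB468 and 0.04 CPM in BT549, SPINT1, an inhibitor of the protease matriptase, 213 and 0.10 CPM, and KRT19, a simple-epithelial keratin, 2135 and 1.65 CPM.

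Of 29 mesenchymal genes, 24 were higher in BT549 and 1 lower, with a median of 6.31. The lower gene was S100A4, a calcium-binding protein often used as a fibroblast marker, at a mean of 10.3 CPM in BT549 and 137 CPM in MDAMB468. POSTN, which encodes the matrix protein periostin, averaged 125 CPM in BT549 and had 0 counts in MDAMB468. The collagen genes COL5A1 and COL3A1 averaged 447 and 623 CPM in BT549 and under 0.11 CPM in MDAMB468, and CDH11, another mesenchymal cadherin, 137 and 0.02 CPM.

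**Figure D2:**
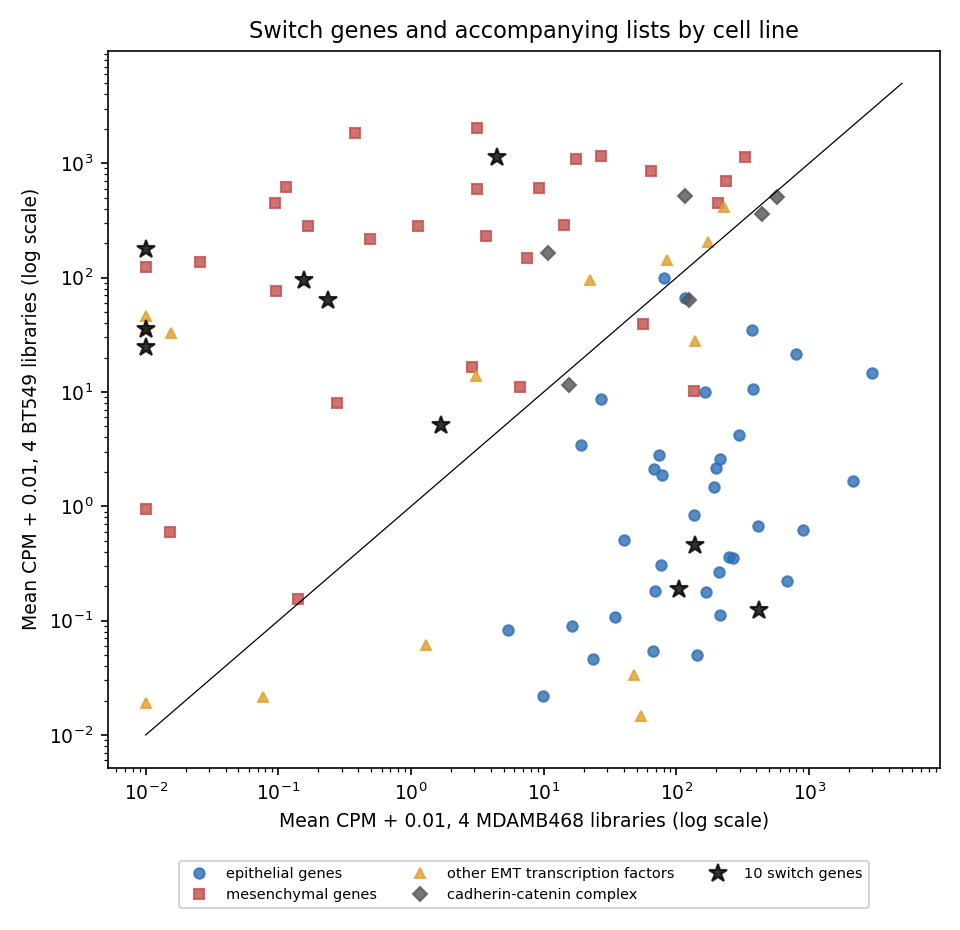
Mean CPM plus 0.01 over the 4 MDAMB468 libraries (x axis, log scale) and the 4 BT549 libraries (y axis, log scale), 1 symbol per gene, with the line of equal level. The epithelial genes lie mostly below the line, 34 of 36 being lower in BT549, and the mesenchymal genes mostly above it, 24 of 29 being higher; the 10 switch genes (stars) lie with both groups.

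The other transcription factors tied to the transition were divided: of 12 tested, 8 were higher and 4 lower in BT549. PRRX1 averaged 36.6 CPM and TCF12, a partner of TWIST proteins, 46.0 CPM in BT549, with 0 counts of either in MDAMB468. TCF12 is widely expressed, and whether its 0 counts belong to the line or to the counting was not tested. FOXQ1 ran the other way at 53.9 CPM in MDAMB468 and under 0.01 CPM in BT549. The catenin side of the cadherin complex was divided as well, since of 6 genes tested 2 were higher (CTNNAL1 and CTNNA1) and 1 lower (MLLT4, the older symbol of AFDN). CTNNA1, which encodes α-catenin, averaged 514 CPM in BT549 and 116 CPM in MDAMB468. Of 12 co-factors and regulators of the SNAI and ZEB proteins, LOXL2, a lysyl oxidase known to stabilise SNAI1, was higher in BT549 (1375 and 92.4 CPM on average), 4 were lower and 7 did not pass.

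CE cells were compared with parental cells of the same line and treatment in 4 pairs, to see whether the cultures that had outlived Acetalax stood elsewhere on the switch. As a single effect over both lines, 0 of the 10 genes passed, where 0.117% of 19693 genes did (23 genes, and 2915 at an unadjusted p under 0.05). DESeq2 called 1 of the 10, VIM (adjusted p = 0.0269). CDH2 came nearest with a log2 difference of −0.83 (SE 0.17, adjusted p = 0.201), followed by VIM with −1.06 (SE 0.28, adjusted p = 0.204) and SNAI2 with 1.22 (SE 0.32, adjusted p = 0.254). Since CDH2 and SNAI2 had no count in MDAMB468, their values come from the BT549 pairs alone and are no shared effect.

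The CE difference was not the same in both lines for 3 of the genes: TWIST1, GRHL2 and VIM passed the test of CE by line, which 12.2% of all genes passed. A term for each line, added after the data had been seen, was therefore used to describe each line. Each line has 2 such pairs from the same CE culture, so a difference between CE and parental cells cannot be told apart from a difference between these cultures.

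In BT549, 7 of the 10 genes differed between CE and parental cells, where 22.4% of all genes did (12.3% higher and 10.1% lower). They did not move to one side of the switch: TWIST1, SNAI2 and ZEB2, on the mesenchymal side, were higher along with GRHL2 and CDH1, on the epithelial side, while CDH2 and VIM were lower. Without the pair of control libraries 4 of the 10 passed, namely TWIST1, SNAI2, ZEB2 and CDH2, where 16.9% of all genes did. By the rule of at least 2-fold and a mean of at least 5 CPM, with no test, 3 of 7 genes were past it in the control pair (TWIST1, SNAI1 and CDH2, against 10.6% of all genes) and 2 of 6 in the Acetalax pair (SNAI2 and TWIST1, against 11.2%). In the test, SNAI2 and ZEB2 in turn missed the threshold without the Acetalax pair (adjusted p = 0.0532 and 0.0751).

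TWIST1 rose 2.70-fold in the control pair, from 51.9 to 140 CPM (counting interval 2.58 to 2.83), and 2.21-fold in the Acetalax pair, from 59.4 to 131 CPM (2.11 to 2.31). Both CE libraries lay above both parental libraries (log2 difference 1.38, SE 0.13, adjusted p = 0.000256). An antisense transcript that overlaps TWIST1, AC003986.6, had 59, 38, 187 and 104 counts, which is few beside the 2192 to 7601 counts of TWIST1.

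SNAI2 was 1.67-fold higher in the control pair (1.52 to 1.84) and 2.93-fold higher in the Acetalax pair (2.68 to 3.20), the CE Acetalax library being the highest of the 4 (1.24, SE 0.24, adjusted p = 0.013). ZEB2 was 1.55-fold (1.45 to 1.67) and 1.53-fold (1.42 to 1.64) higher (0.72, SE 0.16, adjusted p = 0.0191). Its paralog ZEB1 had the opposite sign, with ratios of 0.679 (0.647 to 0.712) and 0.743 (0.703 to 0.785), and did not pass (−0.40, SE 0.15, adjusted p = 0.103). SNAI1 differed between the pairs. Its ratio was 2.72 (2.24 to 3.31) without drug and 0.936 (0.766 to 1.14) with Acetalax, and it did not pass (0.77, SE 0.39, adjusted p = 0.207). TMM scaling adds 0.23 to the log2 ratios of the Acetalax pair, which turns the sign of SNAI1 there.

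CDH2 fell from 223 to 110 CPM in the control pair, a ratio of 0.491 (0.476 to 0.508), and from 242 to 135 CPM in the Acetalax pair, a ratio of 0.559 (0.542 to 0.576), with both CE libraries below both parental ones (−0.84, SE 0.13, adjusted p = 0.00428). VIM fell less, with ratios of 0.651 (0.643 to 0.659) and 0.680 (0.672 to 0.688), and still stood at 864 and 962 CPM in CE cells (−0.50, SE 0.11, adjusted p = 0.0172). Without the control pair its adjusted p was 0.139.

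GRHL2 and CDH1 stayed at trace level in BT549 CE cells. GRHL2 had 32 counts in the CE control library against 3 in the parental control (2.71, SE 0.51, adjusted p = 0.00786), but 2 against 1 with Acetalax. CDH1 had 52 against 10 counts and 18 against 11 (1.45, SE 0.36, adjusted p = 0.0233). Both calls rested on the CE control library: without the control pair the adjusted p was 0.762 for GRHL2 and 0.416 for CDH1. EPCAM, the third epithelial gene, had 2 counts in that library, its lowest, and did not pass (−0.60, SE 0.61, adjusted p = 0.541). At 0.59 CPM GRHL2 was still under 1% of its MDAMB468 level there, since its ratio to the MDAMB468 CE control was 0.00495 (0.00338 to 0.00699).

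**Figure D3:**
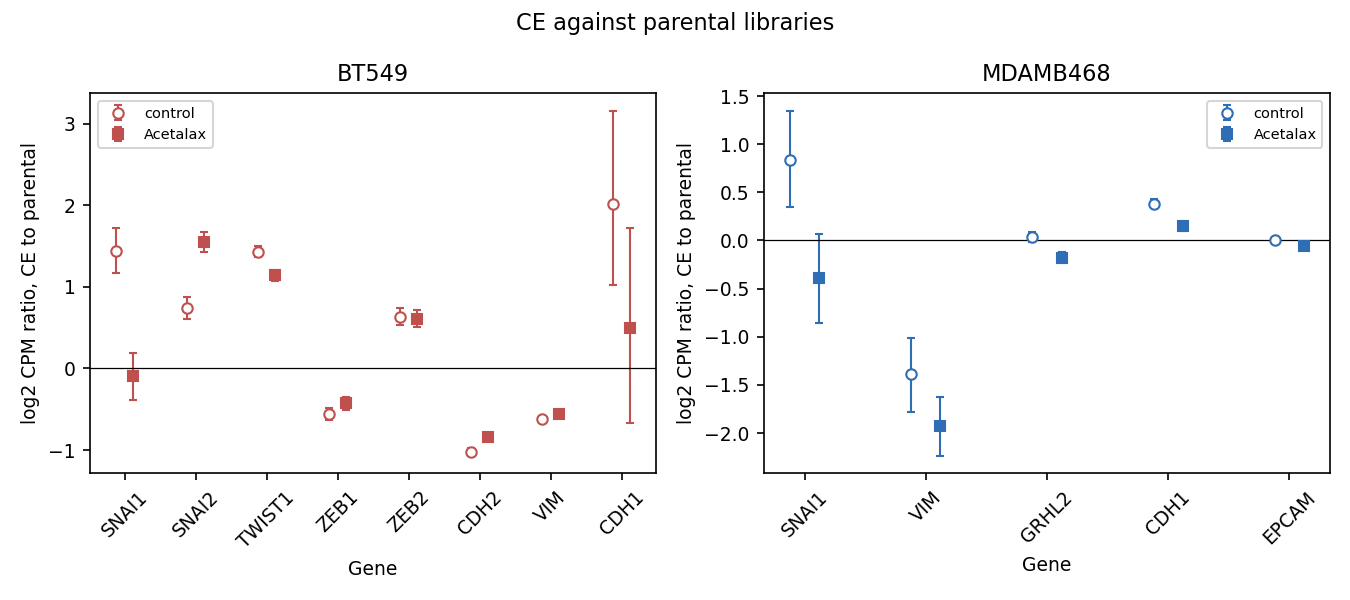
Log2 ratio of CPM in CE to parental cells (y axis) for the switch genes with at least 10 counts in all 4 libraries of a line (x axis), BT549 left and MDAMB468 right; open circles are the control pair, filled squares the Acetalax pair, and bars exact 95% counting intervals. In BT549 TWIST1, SNAI2 and ZEB2 lie above 0 and CDH2, VIM and ZEB1 below it in both pairs. SNAI1 and CDH1 differ between the pairs there. In MDAMB468 VIM lies below −1 in both.

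The wider lists were mixed in BT549 in the same way. Of 36 epithelial genes 12 were higher and 8 lower in CE cells, with a median of 0.08. The 3 with the largest rise were keratin genes of simple epithelia: KRT8 was at 1.25 and 0.85 CPM in parental and 34.4 and 22.2 CPM in CE cells, KRT18 at 6.67 and 4.18 against 47.9 and 27.4 CPM, and KRT19 at 0.64 and 0.37 against 4.15 and 1.44 CPM. Genes of tight-junction proteins went both ways, as OCLN (−1.32, adjusted p = 0.00166) and CGN (−1.33, adjusted p = 0.00136) fell whereas the claudin genes CLDN7 (1.33, adjusted p = 0.00264) and CLDN4 (0.55, adjusted p = 0.0257) rose. These 4 were chosen after their values were seen.

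Of 29 mesenchymal genes 13 were higher and 6 lower in BT549 CE cells, with a median of 0.30 against −0.02 over all genes. MMP2, a matrix metalloproteinase, was at 0 and 0.02 CPM in parental and 36.0 and 30.6 CPM in CE cells. The small proteoglycan genes LUM and DCN were under 0.05 CPM in parental and between 0.87 and 2.12 CPM in CE cells. Chosen after their values were seen, the matrix genes COL3A1 (126 and 114 against 1388 and 863 CPM) and SPARC (439 and 396 against 3447 and 3115 CPM) rose, whereas FN1, which encodes fibronectin, fell (1629 and 1632 against 593 and 748 CPM). Of the 12 other transcription factors 0 were higher and 3 lower, PRRX1, FOXC1 and TWIST2. PRRX1 was at 66.9 and 37.0 CPM in parental and 26.2 and 16.2 CPM in CE cells.

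In MDAMB468, 2 of the 10 genes differed between CE and parental cells, both lower, where 4.42% of all genes differed (2.53% lower). SNAI2, ZEB2 and CDH2 had no count in this line and could not pass. VIM fell from 4.63 to 1.77 CPM in the control pair, a ratio of 0.382 (0.291 to 0.496), and from 8.94 to 2.36 CPM in the Acetalax pair, a ratio of 0.264 (0.212 to 0.325). Both CE libraries were below both parental libraries (−1.71, SE 0.14, adjusted p = 0.000693). By the fold rule, 0 of 3 genes were past it in the control pair (2.67% of all genes) and 1 of 4, VIM, in the Acetalax pair (4.08%). VIM-AS1, antisense to VIM, had 16, 50, 8 and 20 counts beside 225, 434, 78 and 112 of VIM, and since the strand used in counting is not given in the sources used here, reads of the pair may be mixed.

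TWIST1 fell from 11 and 14 counts in parental to 1 and 2 counts in CE cells of MDAMB468 (−2.92, SE 0.49, adjusted p = 0.0179), a call lost without either pair (adjusted p = 0.121 and 0.0778). TWIST1 thus had opposite signs in the lines, and the test of CE by line gave a difference of 4.30 (SE 0.49, adjusted p = 0.00142). For VIM, lower in CE cells of both lines, the fall was larger in MDAMB468, with a difference of 1.22 between the lines (SE 0.18, adjusted p = 0.00428). SNAI2, ZEB2 and CDH2, without a count in MDAMB468, allow no such test.

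The epithelial members of MDAMB468 showed small CE differences, and 0 of 3 passed. The ratios of CDH1 were 1.30 (1.26 to 1.35) and 1.11 (1.07 to 1.15), those of GRHL2 1.02 (0.986 to 1.06) and 0.884 (0.848 to 0.922), and those of EPCAM 1.00 (0.980 to 1.02) and 0.964 (0.945 to 0.983). Under TMM the control ratios of GRHL2 and EPCAM lay below 1. SNAI1 was at 1.79 (1.27 to 2.54) without drug and 0.763 (0.553 to 1.05) with Acetalax, as in BT549 above 1 in the control pair and, by total counts, below 1 in the other.

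Of the 36 epithelial genes, 2 rose in MDAMB468 CE cells and 0 fell. They were KRT8 (0.60, SE 0.08, adjusted p = 0.00791) and KRT18 (0.75, SE 0.12, adjusted p = 0.0139), which were also higher in BT549 CE cells. Of the 29 mesenchymal genes 1 rose, MMP2 (2.65, SE 0.24, adjusted p = 0.00121), and 8 fell, among them TNC, an extracellular matrix glycoprotein gene (−1.57, SE 0.13, adjusted p = 0.000776), and FN1 (−1.55, SE 0.12, adjusted p = 0.000693). FN1 was the only gene of the lists called over all 4 pairs (−1.37, SE 0.14, adjusted p = 0.0472).

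Acetalax at 1 μM for 6 hours was compared with the control of its own background in 4 pairs. Over the 4 backgrounds 0 of the 10 genes passed, where 5.00% of all genes did (984 genes, and 5523 at an unadjusted p under 0.05); DESeq2 also called 0 of the 10. VIM came nearest, with a log2 difference of 0.47 (SE 0.14, adjusted p = 0.0812). The comparisons of Acetalax and of CE share libraries, so their values are given side by side and not set against each other.

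Single pairs were read by the same fold rule. In parental BT549 0 of 6 genes passed it, against 2.44% of all genes, and in CE BT549 1 of 7, SNAI1, against 13.6%. In parental MDAMB468 0 of 4 passed, against 6.57%, and in CE MDAMB468 0 of 3, against 3.20%. Scaling by edgeR's TMM factors (trimmed mean of M values) raised every log2 ratio of the CE BT549 pair by 0.22 relative to scaling by total counts and left 0 of 7 past the rule there.

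SNAI1 was above 1 after Acetalax in both parental lines and below 1 in both CE lines. The ratio to control was 1.36 (1.09 to 1.71) in parental BT549 and 1.70 (1.21 to 2.41) in parental MDAMB468, and 0.469 (0.397 to 0.553) in CE BT549 and 0.724 (0.523 to 0.999) in CE MDAMB468. The counts were 192 against 137, 95 against 56, 209 against 478 and 71 against 91. The test of Acetalax by CE state gave −1.35 (SE 0.46, unadjusted p = 0.0221), and its adjusted p was 1. This test called 0 genes (0.00%), and 91 of 19693 had an unadjusted p under 0.05.

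**Figure D4:**
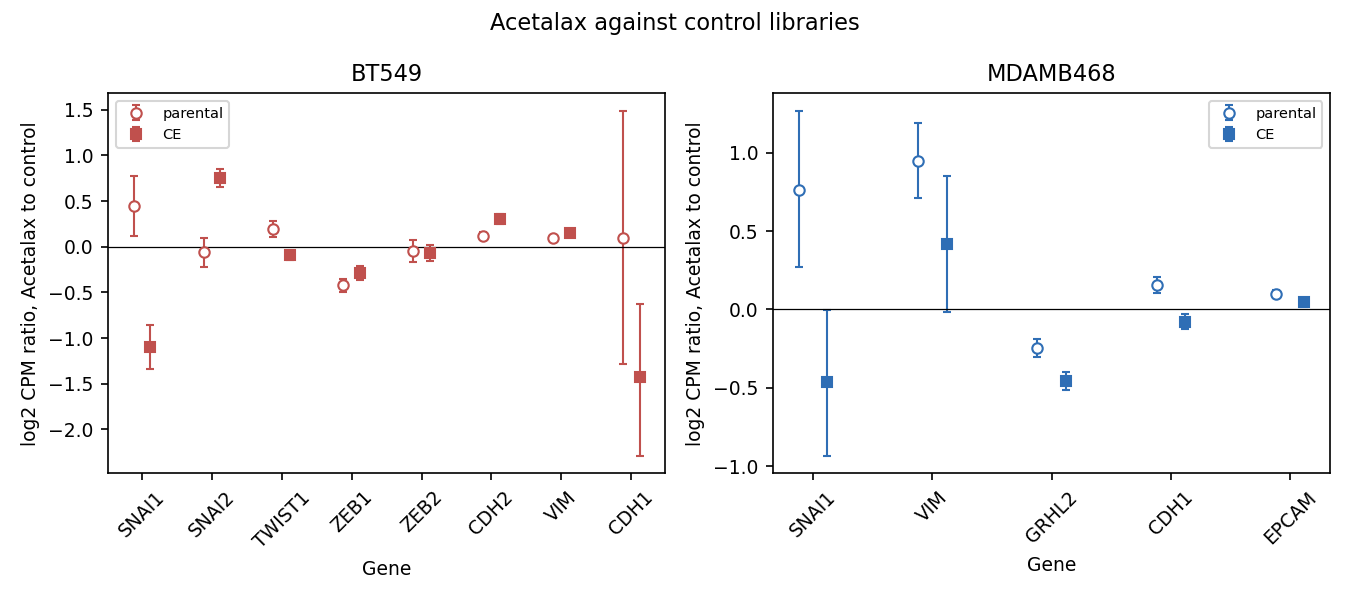
Log2 ratio of CPM after Acetalax to control (y axis) for the switch genes with at least 10 counts in all 4 libraries of a line (x axis), BT549 left and MDAMB468 right; open circles are parental and filled squares CE cells, and bars exact 95% counting intervals. SNAI1 lies above 0 in parental and below 0 in CE cells of both lines, and VIM is above 0 in MDAMB468. CDH1 in CE cells of BT549 lies furthest below 0, and most other genes lie within 0.5 of 0.

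VIM passed in MDAMB468 alone when each line was given its own term, added after the data had been seen (0.79, SE 0.14, adjusted p = 0.0189, 1 of 10 genes where 6.64% of all genes passed). SNAI2, ZEB2 and CDH2, without a count in MDAMB468, could not pass there. VIM rose from 4.63 to 8.94 CPM in parental cells, a ratio of 1.93 (1.64 to 2.28), and had a ratio of 1.33 (0.989 to 1.80) in CE cells. Without the parental pair its adjusted p was 0.546. In BT549 the ratios were 1.07 (1.05 to 1.08) and 1.11 (1.10 to 1.13). The difference between the lines did not pass (−0.55, adjusted p = 0.174).

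Of the 29 mesenchymal genes 9 rose and 0 fell in MDAMB468 after Acetalax, with a median of 0.54 against −0.03 over all genes. AXL, a receptor tyrosine kinase gene, was at 1.23 and 2.17 CPM in the controls and at 7.06 and 4.25 CPM after Acetalax (1.78, SE 0.31, adjusted p = 0.019), the parental libraries being first in each case. ITGA5, an integrin subunit of the fibronectin receptor, was at 3.70 and 4.39 against 13.0 and 8.54 CPM (1.45, SE 0.22, adjusted p = 0.0125), and TAGLN, an actin-binding protein gene, at 9.81 and 7.81 against 19.4 and 19.7 CPM (1.22, SE 0.16, adjusted p = 0.00799). AXL and ITGA5 rose more in parental cells, and TAGLN more in CE cells. Whether the 9 calls hold without either pair was not tested. In BT549 0 of the 29 rose and 2 fell. These are calls within each line. The test of Acetalax by line called 1 of the 29, with a lower value in BT549. AXL, ITGA5 and TAGLN did not pass it (adjusted p = 0.0587, 0.0743 and 0.104).

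The other members of the epithelial side did not pass in MDAMB468. GRHL2 had ratios of 0.843 (0.811 to 0.876) and 0.728 (0.699 to 0.759), CDH1 1.11 (1.07 to 1.15) and 0.947 (0.916 to 0.980; above 1 under TMM), and EPCAM 1.07 (1.05 to 1.09) and 1.03 (1.01 to 1.05). In BT549 CDH1 had 11 against 10 counts in the parental pair and 18 against 52 in the CE pair. It did not pass in the term for the line (−0.82, SE 0.35, adjusted p = 0.150). This term called 1 of 10 genes, GRHL2 (−3.20, SE 0.53, adjusted p = 0.0196, where 13.0% of all genes passed). It was lower in the CE pair at 2 against 32 counts and had 1 against 3 in the parental pair; without the CE pair its adjusted p was 0.691.

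Of the 36 epithelial genes 5 fell and 0 rose after Acetalax over the 4 backgrounds: the transcription factor genes GRHL3, EHF and ELF3, the mucin gene MUC1 and KRT19. In the terms for each line 2 rose and 9 fell in BT549, and 1 rose and 6 fell in MDAMB468. The other regulators in the list, GRHL1, ESRP1, ESRP2, OVOL1 and OVOL2, did not pass over the 4 backgrounds. GRHL3, the paralog of GRHL2, was at 23.3 and 29.7 CPM in the MDAMB468 controls and at 3.99 and 7.95 CPM after Acetalax (−2.01, SE 0.27, adjusted p = 0.0295 over the 4 backgrounds). EHF, an epithelial ETS factor gene, was at 387 and 436 against 118 and 130 CPM (−1.45, SE 0.24, adjusted p = 0.0361), and ELF3, another, at 297 and 299 against 134 and 105 CPM (−1.49, SE 0.27, adjusted p = 0.0377). GRHL3, EHF and ELF3 were under 1 CPM in every BT549 library.

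Of the 29 mesenchymal genes 1, CALD1, rose over the 4 backgrounds (0.74, SE 0.15, adjusted p = 0.0432). Of the 12 other transcription factors 1 rose, ETS1, from 52.1 and 82.3 to 470 and 306 CPM in MDAMB468 and from 281 and 183 to 398 and 808 CPM in BT549 (2.03, SE 0.37, adjusted p = 0.0384), and 1 fell, KLF8 (−0.92, SE 0.18, adjusted p = 0.0432).

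The mesenchymal members of BT549 did not pass after Acetalax. In parental cells the ratios were 0.960 (0.859 to 1.07) for SNAI2, 1.14 (1.08 to 1.21) for TWIST1, 0.748 (0.711 to 0.786) for ZEB1, 0.968 (0.893 to 1.05) for ZEB2 and 1.09 (1.06 to 1.12) for CDH2. In CE cells they were 1.68 (1.57 to 1.80), 0.936 (0.906 to 0.968), 0.818 (0.776 to 0.863), 0.952 (0.898 to 1.01) and 1.23 (1.19 to 1.28) in the same order. ZEB1 was below 1 in both pairs, and SNAI2 was above 1 in the CE pair only, while under TMM the log2 ratios of TWIST1 and ZEB2 in CE cells turned to 0.12 and 0.14. The adjusted p of these 5 in the term for BT549 ran from 0.126 to 0.840, and that of SNAI2 was 0.0205 without the parental pair.

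Genes with the most similar pattern were ranked by Pearson's r of log2(CPM + 1) over the 8 libraries after each line's mean was removed, among 11135 genes, as a description with no p-value, since the libraries of a line share their cells. SNAI2 was most like VEGFC (r = 0.999), a lymphatic growth factor gene at 16.3, 16.1, 27.9 and 48.6 CPM in BT549. TWIST1 was most like PLXND1 (r = 0.996), a semaphorin receptor gene, and ZEB2 most like IFI44L (r = 1.000), an interferon-induced gene. IFI44L was at 0.47 and 0.14 CPM in parental and 190 and 112 CPM in CE cells of BT549, so that a high r came with a far larger change than that of ZEB2. SNAI2 and ZEB2 had 0 counts in every MDAMB468 library, so their r rests on differences among the BT549 libraries. With 8 libraries of 2 lines, many genes reach a high r.

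Promoter windows of RefSeq (GRCh38.p14) were searched for the E-box CACCTG and its complement CAGGTG, the letters bound by SNAI and ZEB proteins, in the 250 bases before each start. Windows were searched for 4 of the 10 genes, ZEB1, ZEB2, CDH2 and VIM. SNAI2 and GRHL2 were left out of the search, and no window was at hand for SNAI1, TWIST1, CDH1 or EPCAM. ZEB1 had 7 windows: 1 of them held 1 match, at −57, another held 2, at −242 and −85, and 5 held 0. The windows of ZEB2, CDH2 and VIM had 0. Of 35116 single windows 17.5% held at least 1 match and 2.53% at least 2, and a gene with 7 windows has more chances of a match than a gene with 1.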

How the data were processed

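The authors aligned paired reads of 101 bases from polyadenylated RNA (directional kit) to hg19 with STAR (version 2.7.11b in the submitters' processing notes), used STAR's GeneCounts option, and deposited the raw counts of reads on each gene. The published methods name a different STAR version. Annotation and strand column are not given in the sources used here. The table has 58154 rows; of 55679 identifiers 1392 were listed more than 1 time (3 with differing counts) and each was used 1 time. Columns of other samples numbered 0.

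CPM used the total count on genes. FPKM used merged exons of GENCODE (GRCh37). Tests were edgeR 4.0.16 quasi-likelihood fits (R 4.3.3, TMM, filterByExpr, Benjamini-Hochberg over all genes, threshold 0.05) with matched conditions as blocks. They left 3 residual degrees of freedom, or 2 with an interaction or a term for each line. Simulated data with known changes were used to check only the fits with 3 residual degrees of freedom. The simulation had less spread than these data and no other differences in expression between libraries, so it does not show how the tests behave here. Each SE is derived from the quasi-likelihood F. DESeq2 1.42.0 was an alternative. Pair ratios carry exact conditional binomial (Clopper-Pearson, scipy 1.17.1) 95% intervals; amplified reads are not independent molecules. Groups came from the sample labels.

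All 10 genes are named; of each list, up to 4 genes by size of the line difference and up to 3 called for Acetalax or CE, and others as marked; 2 genes that this rule covers are not reported here. The 10 genes and lists were chosen with earlier results of these data known. The fold rule, alternatives and leave-one-out fits are given where used.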

Additional observations from a re-analysis of the deposited data

Results flagged for a closer look

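The CE difference of 3 genes was not alike in the lines by the test of CE by line, each value being BT549 minus MDAMB468 on the log2 scale. TWIST1 differed by 4.30 (adjusted p = 0.00142), being higher in CE cells of BT549 and lower, at 1 and 2 counts, in those of MDAMB468. GRHL2 differed by 2.82 (adjusted p = 0.0129), a value that rests on the 32 counts of the BT549 CE control library and that became 1.03 (adjusted p = 0.756) without the BT549 control pair. VIM differed by 1.22 (adjusted p = 0.00428), being lower in CE cells of both lines and further below parental in MDAMB468.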

How the results depend on the processing

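Of the values of single genes under an alternative, 605 kept their call or their interval, 23 moved outside the counting interval, 23 newly passed, 10 no longer passed and 3 that were called or had an interval clear of 0 changed sign; of 134 counts, 84 stayed within 1.5 times. Over the 4 backgrounds, Acetalax called 2678 genes by DESeq2, 3585 without a filter, 2558 in the term for BT549 and 0 in the terms for parental and for CE cells, against 984. Leaving out a pair gave 0 to 554, with 0 when the MDAMB468 parental pair was missing. Of the 10 genes it called 2 without a filter and 1 in the term for each line, against 0. CE over the 4 pairs called 925 genes by DESeq2, 446 without a filter, 4410 in the term for BT549, 870 in that for MDAMB468, 0 in the control libraries alone and 0 to 10 without a pair, against 23; of the 10 genes it called 1 by DESeq2, 7 in BT549 and 2 in MDAMB468. Acetalax by line called 909 genes by DESeq2 and 1632 without a filter, against 351, and of the 10 genes 1 with DESeq2's size factors, 1 by DESeq2 and 2 without a filter, against 0. Acetalax by CE state called 3 genes without a filter, against 0.

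Fits that leave out a pair in the line terms, chosen after seeing the data, keep 1 residual degree of freedom, and a lone pair is assumed to vary like the other line's. CE by line then called 1294 to 2908 genes. CE in BT549 called 3461 to 4158 genes (16.8% to 20.3% of those tested) and 4 to 7 of the 10, and CE in MDAMB468 292 to 1708 genes and 1 to 2 of the 10. Acetalax in BT549 called 636 to 3757 genes and 0 to 3 of the 10, and in MDAMB468 115 to 3518 genes and 0 to 1 of the 10. For CE, the lowest counts came without the BT549 Acetalax pair over all genes and without the BT549 control pair over the 10 in BT549, and without the MDAMB468 Acetalax pair for the other gene counts; for Acetalax they came without the BT549 CE pair and the MDAMB468 parental pair.

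By the fold rule, Acetalax in CE BT549 had 0 of the 10 genes past 2-fold under TMM and 0 on log2(FPKM + 1), against 1, and parental MDAMB468 had 1 under TMM, against 0. CE against parental controls of MDAMB468 had 1 with a mean of at least 1 CPM, against 0. Signs turned for TWIST1 in the CE term for MDAMB468 (−2.92, against 0.62 over both lines), for TWIST1 after Acetalax in CE BT549 under TMM (0.12, against −0.09) and for CDH1 after Acetalax in CE MDAMB468 under TMM (0.014, against −0.08). Signs also turned for 24 tested values called in neither fit and for 3 pair ratios under TMM whose interval held 0 (ZEB2 after Acetalax in CE BT549, and GRHL2 and EPCAM in CE against parental controls of MDAMB468). The ratios of CE to parental cells under Acetalax were not among these values, and that of SNAI1 in BT549 also turned under TMM. The cause was not tested. Each label gives 1 library per condition. The labels carry no replicate numbers, so no block by replicate number was fitted; the blocks were matched conditions. Counts under 10 limit the ratios of GRHL2 and EPCAM in BT549 and of TWIST1 and ZEB1 in MDAMB468.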
